A study of Arabidopsis thaliana with 6 samples.

Results

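A set of 30 genes of Arabidopsis thaliana that act in mitosis and cytokinesis were followed in whole seedlings of a gbpl3 mutant and its wild type. They are 5 A-type cyclins, 8 B-type cyclins, 4 B-type cyclin-dependent kinases and 2 CDC20 genes, CDC20.1 and CDC20.2. The others are 4 genes of the Aurora kinases and the spindle, 3 genes of the spindle checkpoint and sister cohesion, and 4 genes of cytokinesis. The whole set was taken by gene identifier for its known roles and makes up 30 of the 32833 genes in the count table. All 30 passed the filter on low counts, with 78 to 3108 counts each over the 6 libraries.

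In plants, B-type cyclins pair with cyclin-dependent kinases, among them the plant-specific B-type CDKs, to carry cells from G2 into mitosis. CDC20 then turns on the anaphase-promoting complex, a ubiquitin ligase that marks mitotic cyclins for destruction, and the spindle checkpoint holds CDC20 back until chromosomes are attached. Division ends when vesicles fuse at a microtubule array, the phragmoplast, to build the cell plate. Many of these genes are transcribed together in a short window of the cell cycle, through MYB3R factors that bind the mitosis-specific activator (MSA) element. In a seedling such cells sit mainly in the root and shoot meristems and in young leaves.

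Messenger RNA was sequenced from untreated 7-day-old whole seedlings grown on diluted Murashige and Skoog medium with 1% sucrose, as strand-specific libraries from about 50 mg of tissue each. The 2 genotypes were the Col-0 wild type and gbpl3, a mutant of GBPL3, with 3 libraries each. By the series' title GBPL3 is a protein of the nuclear basket, the filaments on the inner face of the nuclear pore, and by its name it is related to guanylate-binding proteins. The genotype labels of the mutant carry the numbers 1 to 3 too, and these were taken for replicates, since the design mentions triplicates only. The sources used here do not give the allele or the kind of mutation. Nothing in the labels tells whether the 3 libraries of a genotype were grown apart, so the p-values rest on a spread between libraries that may be technical. Total counts ran from 9530643 to 12911891 per library. GBPL3 itself (AT5G46070) stood at 68.9, 67.9 and 66.0 CPM in Col-0 replicates 1 to 3 and at 14.8, 18.8 and 15.6 CPM in gbpl3 replicates 1 to 3, a log2 fold change of -2.04 (SE 0.12, adjusted p = 5.11e-09). Levels are normalised CPM, counts scaled to library size, and genes were called at an adjusted p under 0.05 (edgeR, quasi-likelihood test, Benjamini-Hochberg over the 20677 genes tested). On the second principal component, which held 18.0% of the variance, Col-0 replicate 2 stood at -42.6, while Col-0 replicates 1 and 3 stood at 28.4 and 10.11.

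Many of these genes, though not all, are known to be transcribed through the MSA element. The 250 bases upstream of each annotated gene start were therefore searched for its core, AACGG or its reverse complement CCGTT, on both strands. The letters come from the RefSeq TAIR10.1 genome. At least 1 core lay upstream of 20 of the 30 genes (66.7%), and at least 2 lay upstream of 12 (40%). Among 27443 windows of protein-coding genes the shares were 20.6% and 3.62%. A match is a description of letters and not a bound site. The windows of 3 genes are shown 5′ to 3′ on the gene's strand, ending at the base before the start, with cores in capitals. CYCB1;2 (chr5:1861704-1861953, minus strand) was called lower in gbpl3 and holds more cores than any other member. CYCB1;1 (chr4:17624309-17624558, minus strand) was added after its values were seen, as the close relative of CYCB1;2 that was not called. CYCA2;4 (chr1:30213455-30213704, plus strand) has no core and is the gene with the largest adjusted p.
CYCB1;2: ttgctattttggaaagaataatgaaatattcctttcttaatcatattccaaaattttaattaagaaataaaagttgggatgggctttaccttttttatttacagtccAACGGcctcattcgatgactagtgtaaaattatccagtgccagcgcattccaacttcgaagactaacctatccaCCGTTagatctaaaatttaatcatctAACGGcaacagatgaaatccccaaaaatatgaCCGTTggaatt
CYCB1;1: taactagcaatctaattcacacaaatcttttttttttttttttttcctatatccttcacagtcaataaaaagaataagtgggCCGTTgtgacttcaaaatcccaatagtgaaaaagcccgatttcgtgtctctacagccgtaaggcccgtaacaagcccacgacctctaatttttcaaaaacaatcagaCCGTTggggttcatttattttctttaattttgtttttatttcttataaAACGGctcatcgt
CYCA2;4: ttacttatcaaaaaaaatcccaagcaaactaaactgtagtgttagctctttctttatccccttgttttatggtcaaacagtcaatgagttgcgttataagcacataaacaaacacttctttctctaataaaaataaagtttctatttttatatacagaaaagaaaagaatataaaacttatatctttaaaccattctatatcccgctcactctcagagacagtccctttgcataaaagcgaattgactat
The 4 cores of CYCB1;2 begin 143, 69, 43 and 11 bases upstream of the start. The 3 of CYCB1;1 begin 168, 61 and 13 bases upstream.

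**Figure D1:**
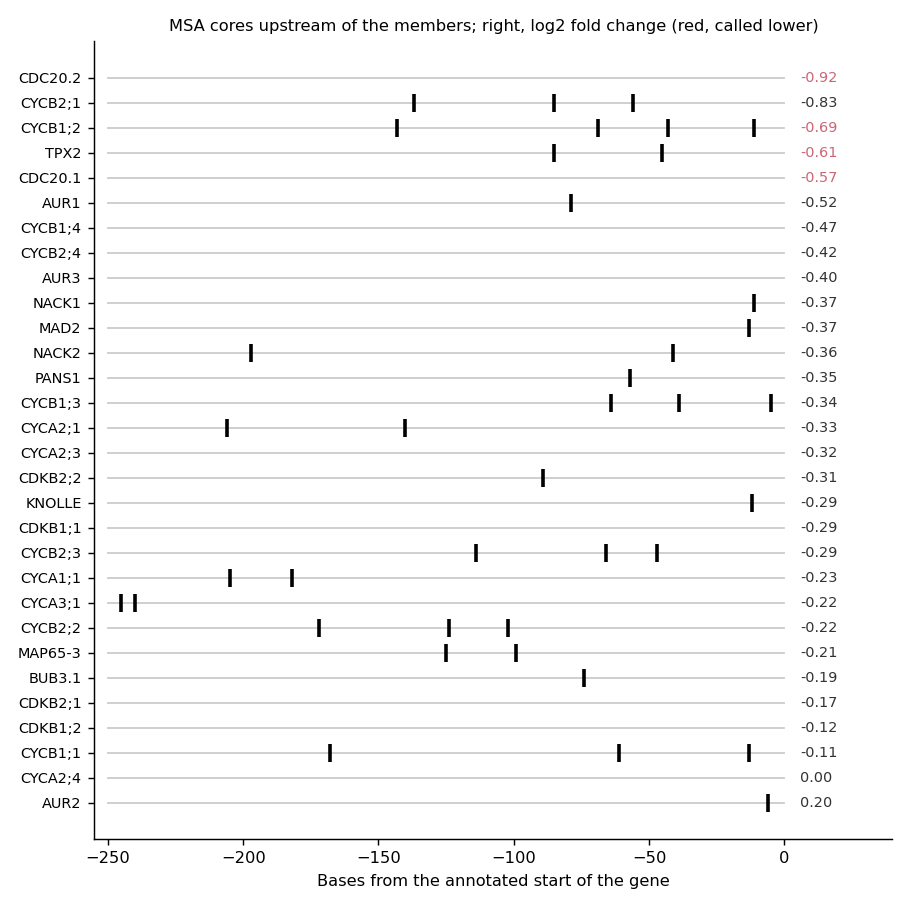
Positions of the MSA core (black ticks, first base of each match) in the 250 bases upstream of the 30 genes, on an axis of bases from the annotated gene start. Genes are ordered by log2 fold change of gbpl3 over Col-0, printed at the right and in red where called lower; 20 of the 30 lines carry a tick, and the lines of CDC20.1 and CDC20.2 carry none.

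Of the 30 genes, 4 were lower in gbpl3: the B-type cyclin CYCB1;2, CDC20.1, CDC20.2 and the spindle factor TPX2. None was called higher, and 26 were not called. The 4 called genes are 13.3% of the list, and 4.69% of all 20677 genes tested were called lower and 6.06% higher. At an unadjusted p under 0.05, 10 of the 30 were lower, where the share over all genes was 11.3%, and 0 were higher, where it was 12.4%. By DESeq2, 4 were lower and 0 higher, where the shares over all genes were 3.87% and 5.18%. Without Col-0 replicate 2 the count called lower was 8, with CYCB1;4, CYCB2;4, AUR1 and KNOLLE added, and the share over all genes was 5.89%. Over the left-out libraries the count ran from 3 to 8, and the share over all genes from 1.52% to 5.89%.

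The shift ran through the list as small differences. The log2 fold change was below 0 for 28 of the 30 genes, against 50.5% of all genes tested, and its median was -0.33, against -0.0034 over all genes. In 12 of the 30 every gbpl3 library lay below every Col-0 library, which held for 13.6% of all genes, and in 0 did every gbpl3 library lie above, which held for 14.5%. Summed over the 30 genes the level was 591, 527 and 538 CPM in Col-0 replicates 1 to 3 and 432, 426 and 422 CPM in gbpl3 replicates 1 to 3. The groups did not overlap, and the means of 552 ± 34.2 and 427 ± 4.89 CPM (SD, n = 3) differed 1.29-fold. Without the 4 called genes the sum was 440, 390 and 394 CPM in Col-0 and 339, 336 and 332 CPM in gbpl3, again without overlap and 1.22-fold apart. In bulk RNA, fewer dividing cells and less of each RNA per dividing cell cannot be told apart.

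**Figure D2:**
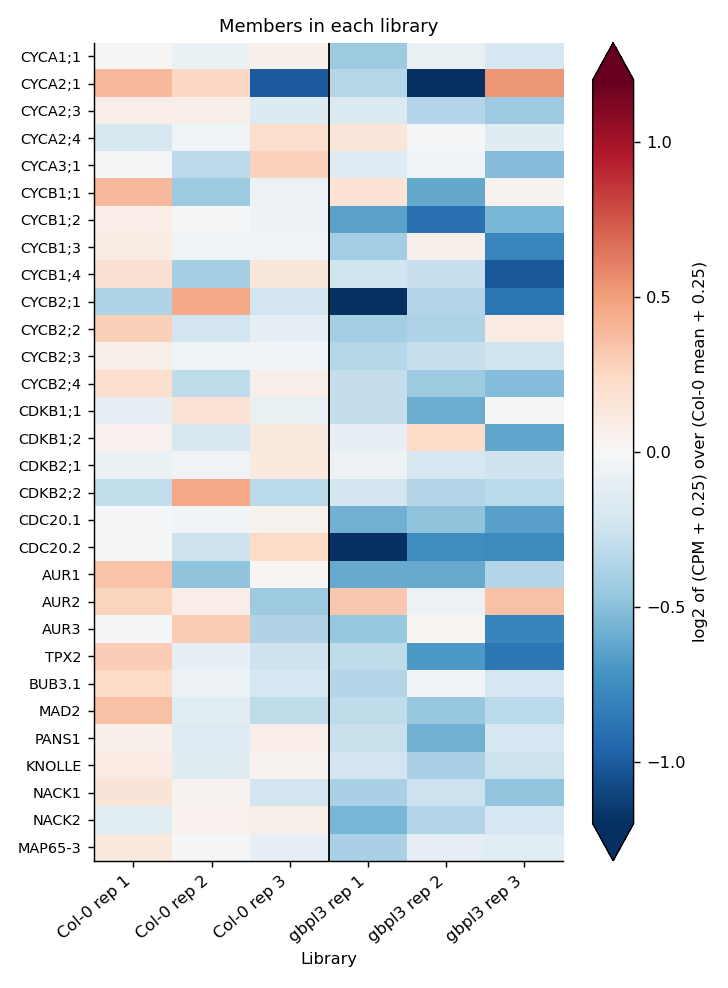
Each row is a gene and each column a library; colour gives log2 of (CPM + 0.25) over the Col-0 mean (+ 0.25), blue below and red above. In the gbpl3 libraries 27, 27 and 26 of the 30 genes lie below their Col-0 mean, and in Col-0 replicates 1 to 3 the numbers are 10, 21 and 17.

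Among the A-type cyclins, which act from S phase to early mitosis, 0 of 5 were called and the median log2 fold change was -0.23. CYCA1;1 stood at 16.1, 15.0 and 16.7 CPM in Col-0 and at 11.7, 14.9 and 13.9 CPM in gbpl3. All 3 mutant libraries lay below the wild-type ones, the nearest pair by little, and the gene was not called (log2 fold change -0.23, SE 0.16, adjusted p = 0.399). CYCA2;3, known for restraining endoreduplication, had a log2 fold change of -0.32 (SE 0.16, adjusted p = 0.215), also with no overlap between genotypes. CYCA2;4 was the member nearest to equality, at 9.57 ± 1.42 CPM in Col-0 and 9.56 ± 0.984 CPM in gbpl3 (SD, n = 3). Its log2 fold change of 0.00 had a 95% interval of -0.40 to 0.41. CYCA3;1, whose relatives are expressed around the start of S phase, had -0.22 (SE 0.29), and CYCA2;1 had -0.33 (SE 0.64) on 78 counts in all, too few to place it.

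B-type cyclins are the mitotic cyclins proper, and all 8 had a log2 fold change below 0, with a median of -0.38. CYCB1;2 (AT5G06150, chr5:1859279-1861703) was the only one called. Its raw counts were 491, 485 and 381 in Col-0 and 274, 281 and 297 in gbpl3, or 42.8, 39.8 and 38.9 CPM against 25.9, 21.7 and 27.6 CPM. The genotypes were well apart, with the lowest Col-0 library above the highest gbpl3 library. The gene fell 1.62-fold, from 40.5 ± 2.03 to 25.1 ± 3.03 CPM (SD, n = 3; log2 fold change -0.69, SE 0.12, adjusted p = 0.00132).

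Its best known relative, CYCB1;1, often used as a reporter of cells in G2 and mitosis and also induced by DNA damage, was not called. It stood at 13.4, 7.47 and 9.71 CPM in Col-0 and at 11.5, 6.58 and 10.5 CPM in gbpl3. The libraries of the genotypes were interleaved, and the log2 fold change was -0.11 with a 95% interval of -0.61 to 0.40 (adjusted p = 0.847). The ratio of CYCB1;2 to CYCB1;1 counts was 3.19, 5.33 and 4.01 in Col-0 and 2.26, 3.31 and 2.63 in gbpl3, which overlap, so the pair was not separated within libraries. The upstream windows of both genes, shown above, carry cores. Identical bases made up 67.3% of the longer coding sequence, and the longest identical run was 22 bases.

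CYCB2;1 had the largest log2 fold change among the members that were not called. With raw counts of 36, 70 and 34 in Col-0 and 17, 41 and 23 in gbpl3, its levels were 3.14, 5.75 and 3.48 CPM against 1.61, 3.17 and 2.14 CPM. The highest mutant library lay just above the lowest wild-type one, and at these counts the SE was 0.36 (log2 fold change -0.83, adjusted p = 0.172). CYCB1;4, with raw counts of 234, 165 and 193 in Col-0 and 160, 190 and 94 in gbpl3, stood at 20.4, 13.6 and 19.7 CPM and at 15.2, 14.7 and 8.74 CPM. Col-0 replicate 2 was the lowest of its group and lay below 2 mutant libraries (log2 fold change -0.47, SE 0.20, adjusted p = 0.165). Without that library the adjusted p was 0.0370, and with another library left out it reached 0.546. CYCB2;4, at 19.2, 13.6 and 17.6 CPM in Col-0 and 13.7, 12.3 and 11.6 CPM in gbpl3, had the same order of libraries in Col-0 (log2 fold change -0.42, adjusted p = 0.1297). Its adjusted p was 0.0325 without Col-0 replicate 2 and reached 0.383 with another library left out. CYCB1;3, CYCB2;2 and CYCB2;3 had log2 fold changes of -0.34, -0.22 and -0.29, and of these CYCB2;3 had no overlap between genotypes.

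**Figure D3:**
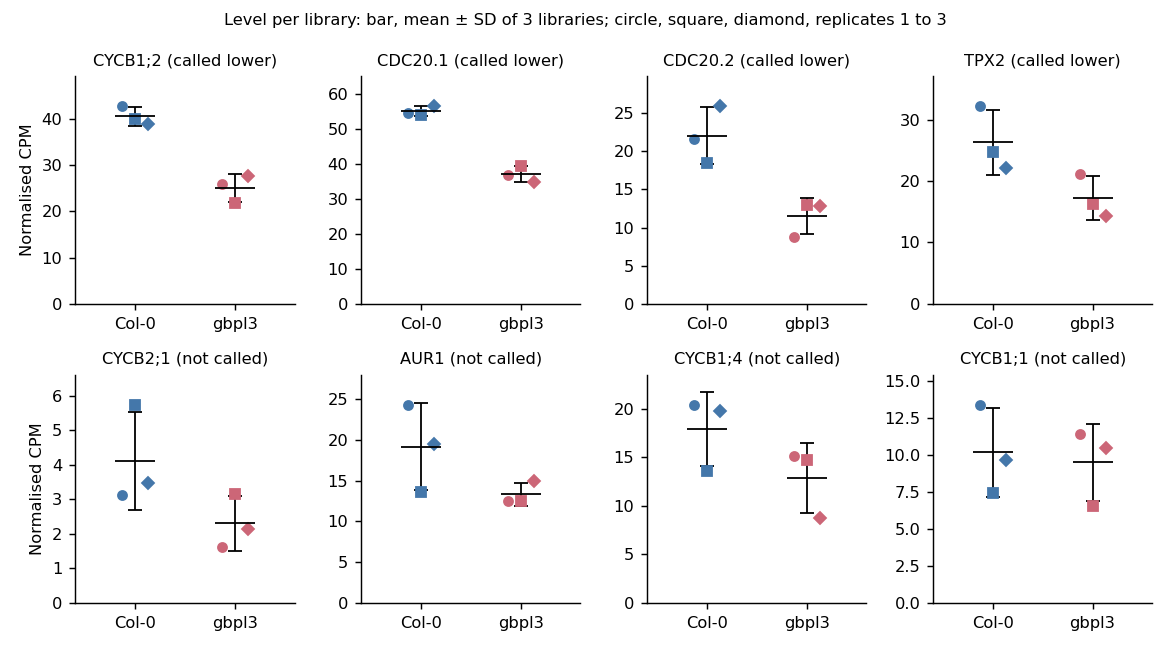
Normalised CPM in each library (points; circle, square and diamond are replicates 1 to 3) with mean and SD of 3 libraries, for the 4 genes called lower (top) and for CYCB2;1, AUR1, CYCB1;4 and CYCB1;1, which were not called (bottom). The genotypes do not overlap for CYCB1;2, CDC20.1, CDC20.2 and TPX2 and do overlap in the bottom row.

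The B-type CDKs, kinases found in plants whose activity peaks from G2 to mitosis, were not called (0 of 4, median log2 fold change -0.23). CDKB2;1, the most abundant of them, stood at 29.3, 30.1 and 33.6 CPM in Col-0 and at 29.6, 27.0 and 26.0 CPM in gbpl3. The library of gbpl3 replicate 1 lay within the wild-type range, and the log2 fold change was -0.17 with a 95% interval of -0.42 to 0.08 (adjusted p = 0.438). Within a library, the ratio of CYCB1;2 to CDKB2;1 counts was 1.46, 1.32 and 1.16 in Col-0 and 0.875, 0.805 and 1.06 in gbpl3. The ratio was lower in each mutant library than in each wild-type library, and no test was made of it. CYCB1;2 was taken as a called gene and CDKB2;1 after its values were seen. The lack of overlap in their ratio is therefore no separate support. CDKB2;2 was set by 1 library, with 19.8 CPM in Col-0 replicate 2 and 11.1 to 12.2 CPM in the other libraries of both genotypes. Its log2 fold change of -0.31 became 0.01 without that library. CDKB1;1 and CDKB1;2 had -0.29 (adjusted p = 0.402) and -0.12 (adjusted p = 0.828).

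Both CDC20 genes of the list, activators of the anaphase-promoting complex, fell in gbpl3. CDC20.1 (AT4G33270, chr4:16044169-16046937) had raw counts of 625, 656 and 554 in Col-0 and 389, 509 and 375 in gbpl3, or 54.5, 53.9 and 56.6 CPM against 36.8, 39.4 and 34.9 CPM. The wild-type libraries lay close together and far above the mutant ones. Its change was 1.48-fold, from 55.0 ± 1.44 to 37.0 ± 2.25 CPM (SD, n = 3; log2 fold change -0.57, SE 0.10, adjusted p = 0.00182). CDC20.2 (AT4G33260, chr4:16041006-16043549) had raw counts of 248, 225 and 254 in Col-0 and 93, 168 and 138 in gbpl3, or 21.6, 18.5 and 26.0 CPM against 8.81, 13.0 and 12.8 CPM. Again the groups did not overlap, and gbpl3 replicate 1 was the lowest library. This was the largest change in the list, 1.90-fold from 22.02 ± 3.76 to 11.5 ± 2.37 CPM (SD, n = 3; log2 fold change -0.92, SE 0.18, adjusted p = 0.00245).

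CDC20.1 and CDC20.2 lie in tandem on chromosome 4, 619 bases apart. Identical bases made up 95.3% of the longer coding sequence, with an identical run of 314 bases, so reads can match both genes and the split of counts between them is uncertain. Their sum does not depend on that split among the pair, although reads dropped for matching both would be missing from it. The sum was 76.1, 72.4 and 82.6 CPM in Col-0 and 45.6, 52.4 and 47.7 CPM in gbpl3, without overlap and 1.59-fold apart. The ratio of CDC20.2 to CDC20.1 overlapped between genotypes, at 0.397, 0.343 and 0.458 in Col-0 and 0.239, 0.330 and 0.368 in gbpl3. The upstream windows of CDC20.1 and CDC20.2 hold no core. The window of CDC20.1 overlaps the neighbouring gene AT4G33280. Bases further upstream or after the annotated start were not searched in either gene.

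TPX2, a microtubule factor that builds the spindle and activates Aurora kinase, was the fourth gene called. TPX2 (AT1G03780, chr1:947520-951850) had raw counts of 370, 300 and 216 in Col-0 and 224, 210 and 154 in gbpl3, or 32.3, 24.6 and 22.1 CPM against 21.2, 16.2 and 14.3 CPM. The groups touched without overlapping, the lowest Col-0 library lying just above gbpl3 replicate 1. The fall was 1.53-fold, from 26.3 ± 5.30 to 17.3 ± 3.55 CPM (SD, n = 3; log2 fold change -0.61, SE 0.17, adjusted p = 0.0245). Leaving out single libraries could end the call: with Col-0 replicate 1 removed the adjusted p was 0.124, with gbpl3 replicate 2 removed 0.0860, and with gbpl3 replicate 3 removed 0.152. TPX2 shares 163 exon bases with AT1G03770 on the opposite strand, which had 479 counts and a log2 fold change of 0.02 (adjusted p = 0.974). The library kit kept strand, but the sources used here do not say whether the counting used it.

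The Aurora kinases phosphorylate histone H3 and, for AUR1 and AUR2, set the plane of division. None of the 3 was called. AUR1 had raw counts of 279, 166 and 191 in Col-0 and 132, 162 and 161 in gbpl3, or 24.3, 13.6 and 19.5 CPM against 12.5, 12.5 and 15.0 CPM. Col-0 replicate 2 lay inside the mutant range (log2 fold change -0.52, SE 0.19, adjusted p = 0.0858), and without it the value was -0.72 (adjusted p = 0.00614). Without Col-0 replicate 1 the log2 fold change of AUR1 was -0.31 (adjusted p = 0.389). AUR2 was the other member with a log2 fold change above 0, at 0.20 (SE 0.20, adjusted p = 0.589), from 11.6 ± 2.80 to 13.4 ± 2.11 CPM (SD, n = 3). The ratio of AUR1 to AUR2 counts overlapped between genotypes, at 1.74, 1.11 and 2.30 in Col-0 and 0.863, 1.14 and 1.01 in gbpl3. AUR2 shares 877 exon bases and AUR1 shares 290 with genes on the opposite strand. AUR3 had -0.40 (SE 0.34, adjusted p = 0.541) on 226 counts.

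BUB3.1 and MAD2 belong to the spindle assembly checkpoint, and PANS1 (PATRONUS1) protects the cohesion of sister chromatids. None was called, and the log2 fold changes were -0.19, -0.37 and -0.35 with adjusted p of 0.525, 0.215 and 0.213. PANS1 stood at 16.0, 13.7 and 16.3 CPM in Col-0 and at 12.7, 10.2 and 13.3 CPM in gbpl3. Its mutant libraries all lay below its wild-type libraries. MAD2 rested on Col-0 replicate 1, at 21.98 CPM against 15.6 and 13.8 CPM in the other wild-type libraries and 12.5 to 13.8 CPM in the mutant.

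The cytokinesis genes were not called (0 of 4). In all 4 every mutant library lay below every wild-type library, which held for 13.6% of all genes. KNOLLE, the syntaxin that fuses vesicles into the cell plate, stood at 48.7, 41.1 and 46.9 CPM in Col-0 and at 38.8, 34.7 and 38.0 CPM in gbpl3. The gap was narrow beside the spread (log2 fold change -0.29, SE 0.11, adjusted p = 0.111). Over the left-out libraries the adjusted p ran from 0.0453, without Col-0 replicate 2, to 0.282. KNOLLE shares 464 exon bases with AT1G08550 on the opposite strand, which had 9038 counts to its 2785. NACK1, a kinesin that starts the signal for phragmoplast expansion, stood at 47.0, 43.5 and 35.9 CPM in Col-0 and at 32.1, 35.1 and 30.3 CPM in gbpl3. The closest libraries were within 1 CPM of each other (log2 fold change -0.37, SE 0.12, adjusted p = 0.0600). Over the left-out libraries the adjusted p ran from 0.0404, without Col-0 replicate 3, to 0.235. NACK2, which acts in the cytokinesis of male meiosis, and MAP65-3, which bundles phragmoplast microtubules, had log2 fold changes of -0.36 (adjusted p = 0.224) and -0.21 (adjusted p = 0.387).

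**Figure D4:**
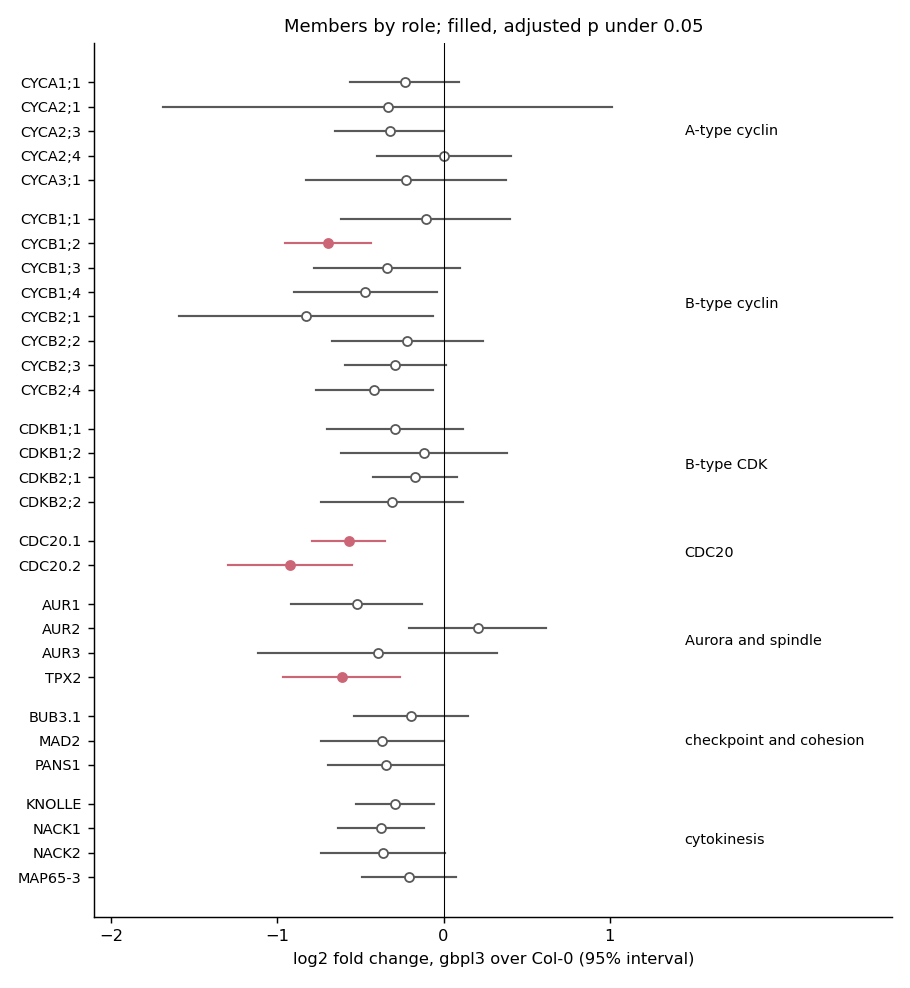
Log2 fold change of gbpl3 over Col-0 (points) with 95% intervals (lines) for the 30 genes by role; filled red points are called at an adjusted p under 0.05. The 4 called genes lie between -0.92 and -0.57, and only AUR2 and CYCA2;4 lie at or above 0.

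Per length of transcript, the 4 highest levels in Col-0 were those of KNOLLE, CDC20.1, CDKB2;1 and CYCB1;2, at 32.9, 26.2, 22.7 and 22.2 CPM per kilobase of exon. The lowest were CYCB2;1 at 2.48 and CYCA2;1 at 0.653 CPM per kilobase. In gbpl3 CDKB2;1 stood at 20.16 and CYCB1;2 at 13.7 CPM per kilobase. The abundant members had the smaller errors, with SE from 0.10 for CDC20.1, while CYCA2;1 had 0.64.

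Members with and without a core upstream had similar medians, and their difference was not tested. The median log2 fold change was -0.32 over the 20 with a core, of which 2 were called lower, and -0.36 over the 10 without, of which 2 were called lower. Over the 12 with at least 2 cores it was -0.31. Among all tested genes with a window, 4.67% of the 15252 without a core were called lower, 5.55% of the 3444 with 1 core, 7.06% of the 623 with 2 and 5.23% of the 172 with 3 or more. In the same order 6.64%, 4.53%, 5.14% and 3.49% were called higher. The median log2 fold changes were -0.00057, -0.013, -0.021 and -0.13, and 50.1%, 52.3%, 53.9% and 64.5% of the genes were below 0. The members are among the genes of these classes, CYCB1;2 and CYCB1;1 in the last one. The classes are therefore no independent background for the members.

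Other genes of the cell cycle were read in 8 further lists, with 102 of 104 genes tested. Of these 12 (11.8%) were called lower and 0 higher, where the shares over all genes were 4.69% and 6.06%. The median was -0.18, and 78 (76.5%) were below 0, against 50.5% of all genes. At an unadjusted p under 0.05, 25 were lower and 1 higher, where the shares over all genes were 11.3% and 12.4%. By list, the medians nearest to that of the 30 genes were those of the other A- and B-type cyclins (-0.44, 1 of 6 lower), the other spindle and checkpoint genes (-0.38, 3 of 11) and the other cytokinesis genes (-0.30, 5 of 21). Among 17 S-phase genes 2 were lower and the median was -0.19. No gene was called among 11 of the anaphase-promoting complex and its regulators (-0.04), 11 G1 cyclins and CDKA genes (-0.08) and 13 CDK inhibitors (-0.01). With 4.69% of all genes called lower, 0 calls in lists this short do not set them apart. The differences between lists were not tested.

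BUBR1, a spindle checkpoint protein, stood at 10.9, 12.2 and 12.3 CPM in Col-0 and at 5.40, 7.19 and 6.51 CPM in gbpl3 (log2 fold change -0.88, SE 0.20, adjusted p = 0.00701). INCENP, the partner that anchors Aurora kinase at the centromere, stood at 24.8, 26.5 and 27.8 CPM and at 15.4, 17.8 and 17.7 CPM (-0.63, SE 0.13, adjusted p = 0.00473). In both the genotypes did not overlap. They were the 2 of the 12 that stayed called whichever library was left out, whereas 10 were lost without at least 1 library. INCENP was lost under all 3 limma settings, and BUBR1 under none of the alternatives. CYCB3;1 fell by 0.89 on the log2 scale (adjusted p = 0.0125, 0.0655 without gbpl3 replicate 3). The kinesin ATK5 had -0.46 (adjusted p = 0.0304). Of the cytokinesis genes, the dynamin-related DRP5A had -0.71 (adjusted p = 0.0162), the kinesin POK2 -0.46 (0.0235), the kinase-like RUNKEL -0.43 (0.0258) and MAP65-4 -0.52 (0.0330). The cellulose synthase-like CSLD5, with -0.35 (0.0351), was named after its values were seen. The call of ATK5 ended without Col-0 replicate 1 or 3 or gbpl3 replicate 3 (adjusted p up to 0.185), that of POK2 without Col-0 replicate 1 or gbpl3 replicate 1 or 3 (up to 0.141) and that of DRP5A without Col-0 replicate 1 or gbpl3 replicate 2 (up to 0.0721). RUNKEL kept its call only without Col-0 replicate 1 and MAP65-4 only without Col-0 replicate 2, and the other libraries gave up to 0.132 and 0.128. CSLD5 lost it without Col-0 replicate 1 or any gbpl3 library (up to 0.115). With the replicate block the calls of POK2, MAP65-4, CSLD5 and, in S phase, FAS1 ended, which left 8 of the 12, and with DESeq2 those of MAP65-4 and FAS1, which left 10. RUNKEL shares 776 exon bases and ATK5 shares 391 with genes on the opposite strand.

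Of the transcription regulators 1 of 12 was called lower, SCL28, a GRAS factor that acts with MYB3R proteins at G2 and mitosis (log2 fold change -0.52, adjusted p = 0.0244). Its call ended when Col-0 replicate 1 or 3 or gbpl3 replicate 1 or 3 was left out (adjusted p up to 0.142). The activators MYB3R1 and MYB3R4 both had -0.28 (adjusted p = 0.138 and 0.355) and were named after their values were seen. In S phase, the licensing factor CDT1A had -0.63 (adjusted p = 0.0166, 0.109 without gbpl3 replicate 3) and the chromatin assembly factor FAS1 -0.52 (adjusted p = 0.0341, up to 0.171 when any of the same 4 libraries was left out). In the DNA damage list of 5 genes, GMI1, a repair gene that responds to DNA breaks, was higher, at 6.45, 6.57 and 6.44 CPM in Col-0 and 13.4, 15.4 and 10.2 CPM in gbpl3 (1.01, SE 0.20, adjusted p = 0.00323). Its call ended under all 3 limma settings.

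**Figure D5:**
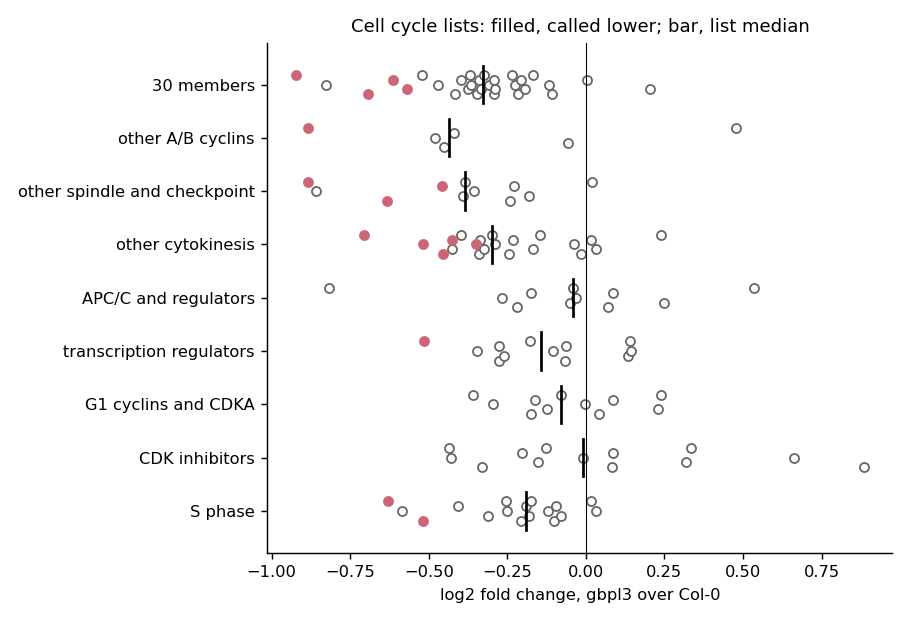
Log2 fold change of gbpl3 over Col-0 for the tested genes of each list (points; red, called lower; black bar, median; vertical scatter within a list has no meaning). The medians of the 30 genes and of the other cyclin, spindle and cytokinesis lists lie between -0.44 and -0.30. Those of the S-phase genes and the transcription regulators are -0.19 and -0.14, and those of the anaphase-promoting complex, G1 and inhibitor lists lie between -0.08 and -0.01.

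Markers of tissues that hold dividing cells were read beside these values. Of 4 root meristem markers (PLT1, PLT2, WOX5 and PLT3) 0 were called lower or higher, and their summed level was 14.0 to 16.1 CPM in Col-0 and 15.3 to 21.1 CPM in gbpl3. Of 4 shoot markers 2 were tested and 0 called, with sums of 21.4 to 27.2 CPM in Col-0 and 18.6 to 19.9 CPM in gbpl3, most of it ANT, and WUS had 0 counts in all libraries while CLV3 had 6 in all. Of 7 markers of the stomatal lineage 5 were tested and 0 called (44.8 to 51.0 CPM and 43.2 to 48.2 CPM), and of 3 lateral root markers 1 was tested and 0 called (1.40 to 2.96 CPM and 2.98 to 5.65 CPM). At an unadjusted p under 0.05, 1 shoot marker was lower (log2 fold change -0.42), where the share over all genes was 11.3%. By the same measure 1 root meristem and 1 lateral root marker were higher, where it was 12.4%. Some markers of other tissues were called higher in gbpl3, where the share over all genes was 6.06%. Of 5 root hair markers these were LRX1, PRP3 and PRP1, while EXPA7 and COBL9 were not called. The summed root hair list stood at 42.7 to 50.9 CPM in Col-0 and 101 to 165 CPM in gbpl3. Of 4 leaf mesophyll markers it was LHCB2.1, whose call ended under all 3 limma settings. The summed mesophyll list stood at 22942 to 24974 CPM in Col-0 and 24785 to 28709 CPM in gbpl3. The 5 seed markers summed to 0.262 to 1.53 CPM in Col-0 and 18.3 to 215 CPM in gbpl3, with CRU3 and SESA1 at 0 counts in Col-0. The seed genes that passed the low-count filter did so through their mutant libraries, so their calls are not counted here. The seed sum differed strongly among mutant libraries. The part of these tissues in the lower mitotic levels was not tested.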

How the data were processed

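Strand-specific messenger RNA libraries of whole seedlings were sequenced, 3 per genotype, per the labels' protocols. The authors deposited raw counts per gene and a second table of FPKM values. The submitters' processing notes name the aligner HISAT2 2.0.4, the counter HTSeq 0.6.1p1 and the genome build TAIR10. How the counting treated strand and multiply matching reads is not given in the sources used here. Each deposited FPKM value was the count over a gene length and the library total. For 16 of the 30 genes that length was the exon union within 1 base, and for CDKB1;2 it was 2.50 times as long, so levels per length were computed from exon unions.

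The deposited counts passed edgeR's filterByExpr and TMM scaling, and genotypes were compared over all 6 libraries with the quasi-likelihood F test (edgeR 4.0.16 in R 4.3.3). Benjamini-Hochberg adjustment covered the 20677 genes tested, with a threshold of 0.05. Of 32833 genes 25796 had a count, and the TAIR10.1 reference held 99.1% of the identifiers and named all 30 members. AT5G46070 was assigned to GBPL3 from background knowledge. The procedure was tested on simulated data. The upstream sequence of 1 further gene that the naming rule selects is not reported here. Library pairs within a genotype differed with a chi-square of 4.97 to 14.4 per degree of freedom, where sampling noise gives about 1, and none was counted as a duplicate. Members, lists and tests were chosen with earlier results of these data known. Values per library are given for the members called and for the 3 largest log2 fold changes not called. Of each other list up to 4 called genes are named, plus called relatives of a member. The values per library of CYCB1;1, CYCB2;4, CYCA1;1, CDKB2;1, CDKB2;2, PANS1, MAD2, KNOLLE and NACK1 were chosen after they were seen. Results were recomputed with RLE or upper-quartile scaling, with DESeq2 1.42.0, without the filter or with 1 CPM in 3 libraries, and with the replicate number as a block. They were also recomputed without each library in turn and with limma 3.58.1 on log2(FPKM + 1) or log2(FPKM + 0.1), for genes averaging 1 FPKM or, with the pseudocount of 1, for all genes.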

Additional observations from a re-analysis of the deposited data

How the results depend on the processing

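The 4 genes called lower (CYCB1;2, CDC20.1, CDC20.2 and TPX2) were called under RLE and upper-quartile scaling, DESeq2, a filter of 1 CPM in 3 libraries and the replicate block, each time with no other member. Without a filter 6 were called (AUR1 and NACK1 added; 4.87% of all genes lower), with limma on filtered FPKM 3 (without TPX2; 2.0% and 1.89%), with limma and no filter 2 (CYCB1;2 and CDC20.1; 0.88%), and with 1 library left out 3 to 8. CYCB1;2 and CDC20.1 were called under all 15 alternatives, and no member was called higher under any. The median of the members minus that of all genes ran from -0.34 to -0.26. Same-numbered libraries of the genotypes deviated together with correlations of -0.06 to 0.04, so the numbers do not pair them; the replicate block called 4 members and, over all genes, 618 lower. Over all genes, limma called 390, 368 and 227 lower and 424, 384 and 294 higher (log2(FPKM + 1), log2(FPKM + 0.1) and no filter), and leaving out a library gave 320 to 1238 lower and 629 to 1443 higher. Of the other cell cycle genes limma called 3, 3 and 1 lower, DESeq2 10, the replicate block 8, and leaving out a library 3 to 13. Signs turned only for members that were not called: CYCA2;1 (-1.16 to 0.17 over left-out libraries), CYCB1;1 (-0.30 to 0.14), CDKB1;2 (-0.34 to 0.0857), CDKB2;2 (-0.44 to 0.00935) and CYCA2;4 (-0.0015 with no filter, -0.0547, -0.0635 and -0.0547 with limma, -0.0862 to 0.12 over left-out libraries). The cause was not tested. CYCA2;1 was not tested by limma on filtered FPKM. Counts per member limit the rest: the SE of CYCA2;1, CYCB2;1 and AUR3, with 226 counts or fewer, was 0.34 to 0.64.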
